A study of Rattus norvegicus with 12 samples.

Results

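The interleukin genes examined here are the rat interleukins and interleukin receptors outside the groups of IL-1α, IL-1β and their receptors, IL-18, IL-33, IL-6 and IL-11. They were chosen by name. Every probe that is not a control and whose gene name on the array begins with Il and a digit was taken, and names that begin with Il1a, Il1b, Il1r, Il33, Il6 or Il11, and the name Il18 itself, were left out. This gave 62 probes of 57 genes, among 30367 probes of 26481 genes on the array. Of the 57 genes, 27 are ligands and 30 are receptor chains or binding proteins.

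Expression was measured in adipocytes from the epididymal fat of male Fisher 344 rats, about 12 weeks old at purchase. The CUS group was 6 rats that had gone through chronic unpredictable stress, a schedule of changing stressors such as swimming, rotation, wet bedding and nights without food and water, applied at 2 per day for 35 days. The control group was 6 rats that were only handled, every 2 days, when they were weighed. Both groups were of 1 strain and carried no transgene, and total RNA of each rat was labelled with Cy3 and read on 1 Agilent array. The sample labels call the cells adipocytes, while their extraction text speaks of preadipocytes. The adipocyte genes Adipoq, Fabp4, Lipe, Pnpla2, Plin1, Cidec, Pparg and Lep were well above background on all 12 arrays. So were the fibroblast and preadipocyte genes Pdgfra, Dpt, Cd34, Col15a1 and Dcn, so these genes do not settle between the descriptions.

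Interleukins are secreted proteins through which immune, stromal and epithelial cells signal to each other. Most act on receptors built of a chain that binds the ligand and a shared partner chain, such as the common gamma chain of the IL-2, IL-4, IL-7, IL-15 and IL-21 receptors, and they signal through JAK kinases and STAT factors. The IL-17 receptors use the adaptor Act1 instead, and some members of these families are decoys or secreted proteins that bind a ligand without signalling. In fat, IL-4 and IL-13 are known for keeping macrophages in an alternatively activated state, IL-10 for damping inflammation, and IL-17 for acting on fat cell precursors.

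Levels are log2 intensities relative to the 75th percentile of the same array, so that 0 is the 75th percentile and a level cannot be set against that of another probe. A difference is the CUS mean minus the control mean on this scale, and a gene was tested where its probe was well above background, by the scanner software's own call, on at least 6 of 12 arrays. The 75th percentile was an intensity of 541.1 to 626.9 on the CUS arrays and of 229.6 to 399.8 on the control arrays. The lowest of these values and the smallest share of probes above background (60.4%) both belonged to control replicate 3, which also stood apart in several genes below. Each group filled a slide of its own, so slide and group cannot be told apart. The RNA came from isolated cells in bulk, in which fewer cells of a type and less RNA per cell cannot be told apart. Among markers of other cells, all 6 tested red blood cell genes, 6 of 7 mast cell genes and 3 of 3 mesothelial genes were higher in CUS. In contrast, 5 of 5 smooth muscle genes and 5 of 7 endothelial genes were lower. Among all tested genes, 24.2% were higher and 25.8% lower by the same limma test. The mast cell count includes Ms4a2, above background on no control array, and Cpa3, above background on 1 control array. Both reached the 6 arrays needed for the test through the CUS arrays.

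Most of these genes were dim or not seen in the adipocytes. Of 57 genes, 23 were well above background on all 12 arrays and 21 on none. In all, 26 genes (45.6%) could be tested, against 65.7% of the genes of the whole array. The tested genes comprised 11 of 27 ligands and 15 of 30 receptors or binding proteins. The genes seen on no array included the ligands Il2, Il3, Il4, Il9, Il21, Il22 and Il25, both chains of IL-12 (Il12a and Il12b), and the receptor chains Il5ra, Il9r, Il10ra, Il12rb1, Il17rb, Il18rap, Il22ra1 and Il27ra. Il5, the eosinophil growth factor, was seen in 2 control rats and no CUS rat. Il24, Il2ra and Il21r were above background on 2 CUS arrays and no control array each.

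**Figure D1:**
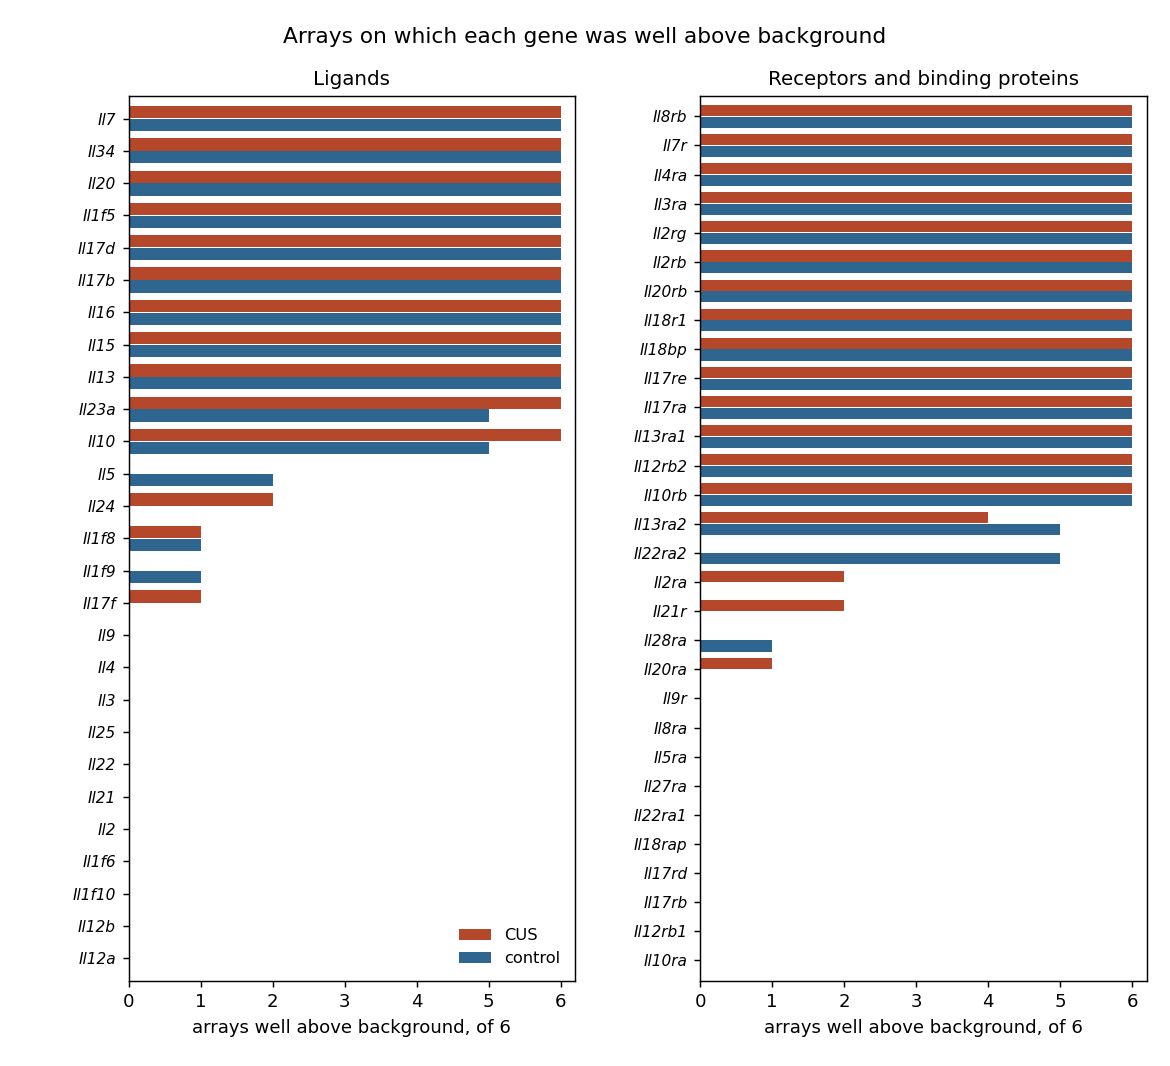
The bars give, for each of the 57 genes, on how many of the 6 CUS arrays (red) and the 6 control arrays (blue) its brightest probe was well above background, with ligands on the left and receptors and binding proteins on the right. Il22ra2, with 0 CUS and 5 control arrays, is the gene whose bars differ most.

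Among the 26 tested genes, 13 passed the limma test at an adjusted p of 0.05. More of them were lower than higher in CUS. The 3 genes that were higher (11.5%) were Il10, Il17d and Il4ra, where 24.2% of all 17392 tested genes were higher. The 10 genes that were lower (38.5%) were Il20rb, Il13ra2, Il17b, Il20, Il7r, Il3ra, Il1f5, Il18r1, Il2rg and Il15, where 25.8% of all tested genes were lower. With a change of at least 2-fold in addition, 1 gene was higher (3.8%, against 3.24% of all genes) and 5 were lower (19.2%, against 8.76% of all genes). The median difference was -0.20 for the 26 genes and -0.02 for all tested genes. The values of the CUS and control rats did not overlap for 6 of the 26 genes (23.1%), a share close to the 21.9% of all tested genes. These were Il20rb, Il20, Il3ra, Il1f5, Il2rg and Il15, all lower in CUS.

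The split between higher and lower depended on how the arrays were set against each other. It was 3 higher and 10 lower as given above, 4 higher and 8 lower with quantile normalization, 2 higher and 15 lower with another background correction (normexp), and 11 higher and 2 lower when the arrays were scaled on the spike-in RNAs added before labelling. Spike-in scaling moved the median difference of all tested probes by 0.829, to 0.811, and normexp moved it by -0.159, so their values are best read against these shifts. The spike-ins themselves differed by -0.05 between the groups as measured (exact permutation p = 0.73) and by -0.83 relative to the 75th percentile of the array (exact permutation p = 0.0043). Without control replicate 3, 5 genes were higher and 14 lower. All 13 genes named above still passed without that array, and Il7, Il13ra1, Il17re, Il18bp, Il23a and Il34 passed in addition.

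**Figure D2:**
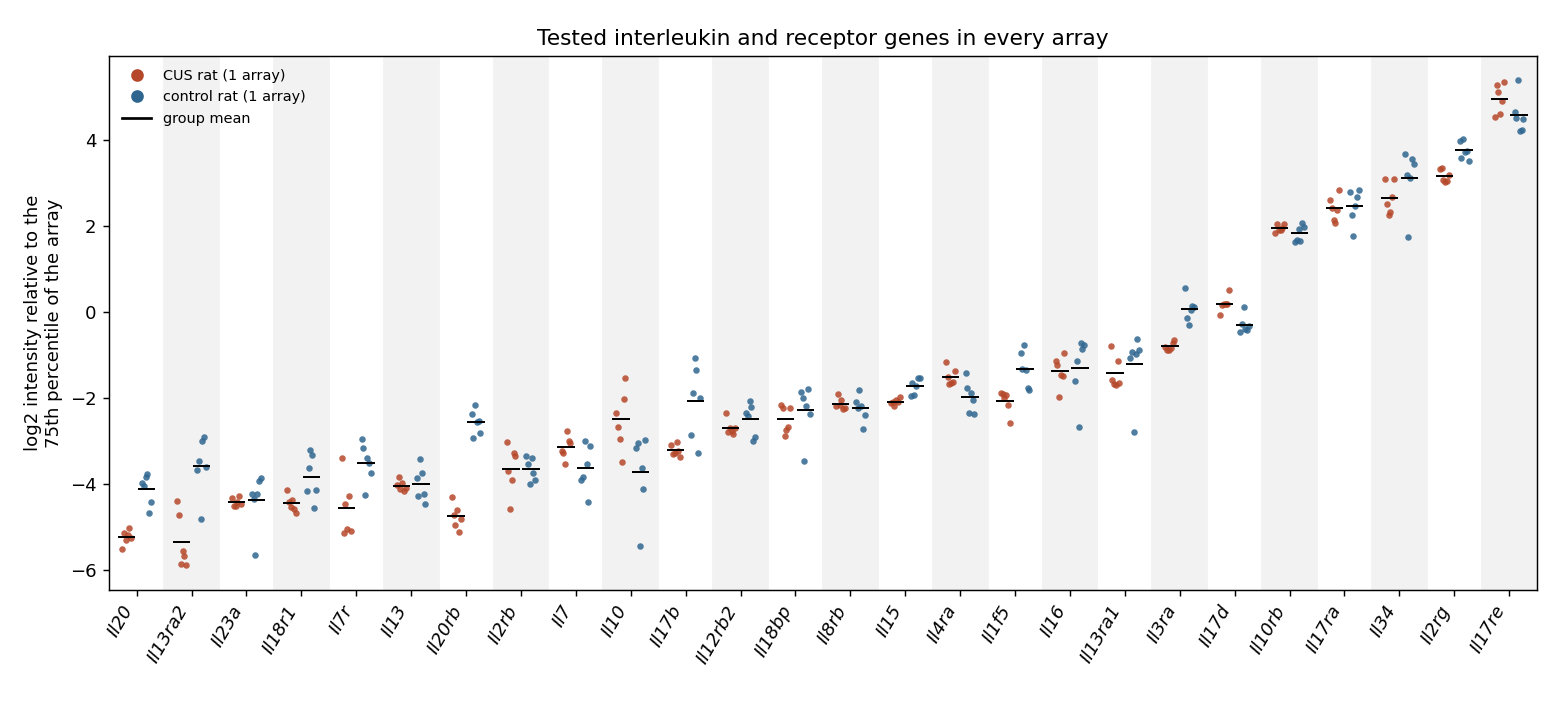
Each point is 1 rat, CUS in red and control in blue, with a line at the group mean, for the 26 tested genes ordered by mean level. The vertical axis is the log2 intensity relative to the 75th percentile of the array, and heights of different genes are not comparable since each is read by its own probe. The groups are separate for Il20, Il20rb, Il15, Il1f5, Il3ra and Il2rg.

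Among the 26 tested genes, the largest difference was in a receptor chain for the IL-20 group of cytokines. The probes of 4 of the 5 genes that were lower by at least 2-fold are given 5′ to 3′, since each difference rests on the hybridisation of these 60 bases alone. Their positions, as the array design gives them, refer to rat build rn4. Il7r has another tested probe, not printed here, which differed by 0.40 (limma adjusted p = 0.41).
Il20rb, chr8:105316059-105316118, minus strand: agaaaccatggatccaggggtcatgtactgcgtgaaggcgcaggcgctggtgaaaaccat
Il13ra2, chrX:30506824-30506883, minus strand: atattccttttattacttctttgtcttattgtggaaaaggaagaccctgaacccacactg
Il17b, chr18:57667477-57667536, plus strand: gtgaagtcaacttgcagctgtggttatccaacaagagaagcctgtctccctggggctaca
Il7r, chr2:59105683-59105742, minus strand: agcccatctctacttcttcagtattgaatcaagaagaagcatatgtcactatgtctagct

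Il20rb encodes the beta chain shared by the receptors for IL-19, IL-20 and IL-24. Its level was -5.13 to -4.30 (median -4.77) in CUS rats and -2.94 to -2.17 (median -2.56) in control rats. Every CUS rat lay below every control rat. The difference was -2.19 (SE 0.16, n = 6 per group), which is 4.56-fold lower, with a limma adjusted p of 1.8e-06. It ranged from -2.28 to -2.11 when each array was left out in turn. It was still lower with spike-in scaling, at -1.36. Il20, a ligand of that receptor, was lower as well. Its level was -5.51 to -5.02 (median -5.23) in CUS and -4.69 to -3.77 (median -4.02) in controls, again without overlap. The difference was -1.11 (SE 0.15, limma adjusted p = 0.00015). With spike-in scaling it was -0.28 and did not pass (limma adjusted p = 0.28).

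Il22ra2 encodes the secreted IL-22 binding protein, a decoy that keeps IL-22 from its receptor. It was above background on no CUS array and in 5 of 6 control rats, and therefore was not in the test. Its mean level was -4.23 in controls, against -6.62 as measured in CUS. On each CUS array the higher of its own level and the lowest signal called well above background was taken, with a mean of -6.29. Set against this value, it was at least 4.16-fold lower in CUS. The alpha chains for the same cytokines were hardly seen, since Il20ra was above background on 1 CUS array and Il22ra1 on none. Il22ra2 and Il20ra are neighbours on chromosome 1, with probes within 119 kb.

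Dim probes have a limit that differs between the groups. The lowest signal called well above background was -6.80 to -6.48 on the CUS arrays and -6.12 to -5.46 on the control arrays. Across 7551 probes of the array that were above background nowhere, the median difference was -0.80, and across the 21 interleukin genes of that kind it was -0.82 (range -1.53 to -0.15). Il13ra2 was not called well above background on 2 CUS arrays and Il22ra2 on all 6. The part of this limit in the differences of dim genes, Il20 among them, was not tested. Il20rb was above background on every array, and the part of the limit in its difference was not tested either.

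Il10, the main anti-inflammatory interleukin, was the one gene higher by at least 2-fold. Its level was -3.49 to -1.53 (median -2.52) in CUS rats and -5.44 to -2.98 (median -3.41) in control rats. The groups overlapped, and control replicate 3 had the lowest value. The difference was 1.24 (SE 0.43, 95% confidence interval 0.31 to 2.16), or 2.35-fold, with a limma adjusted p of 0.03. It was not past the threshold without CUS replicate 5 (adjusted p = 0.061), CUS replicate 6 (0.065) or control replicate 5 (0.056), nor with normexp background correction, where it was 0.21 (limma adjusted p = 0.28), nor with array weights, where it was 0.63 (limma adjusted p = 0.095). It was 0.89 without control replicate 3. Il10rb, the partner chain of the IL-10 and IL-22 receptors, differed by 0.12 (95% confidence interval -0.08 to 0.33), and Il10ra, which binds IL-10, was above background on no array. The probes of Il24, Il20 and Il10 lie in this order within 126 kb of chromosome 13. Il20 at position 43860771 was lower and Il10 at position 43957707 higher, while Il24 at position 43831514 could not be tested.

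IL-10 is made by macrophages, T cells and mast cells among others, so their markers are given beside it. The summed level of 7 macrophage genes was 29.1 to 77.2 times the 75th percentile in CUS and 10.5 to 42.6 times in controls. The brightest of them, C1qa and C1qb, weigh most in this sum. Of 6 tested, 2 (Csf1r and C1qa) were higher. Adgre1 (0.66), Cd163 (0.62), C1qb (0.72) and Cd68, with the opposite sign (-0.56), did not pass. The summed level of 7 mast cell genes was 2.16 to 5.59 in CUS and 0.329 to 0.517 in controls. Of 8 T cell genes, 4 could be tested and none passed, with a summed level of 0.544 to 1.08 in CUS and 0.598 to 0.89 in controls, and Cd3e, Cd2 and Cd8a were above background on no array. The part of these cells in the difference of Il10 was not tested.

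The receptors for IL-13 differed among themselves. Il13ra2, a high-affinity receptor for IL-13 known mainly as a decoy, was at -5.90 to -4.40 (median -5.63) in CUS and -4.82 to -2.91 (median -3.54) in controls. Only control replicate 3 fell within the range of the CUS rats. The difference was -1.77 (SE 0.35, limma adjusted p = 0.0013), or 3.42-fold lower, and it was above background on 4 CUS and 5 control arrays. It passed with each array left out (-2.02 to -1.64) and with spike-in scaling (-0.95). Il13ra1, which pairs with the IL-4 receptor chain to signal, differed by -0.20 (SE 0.32, limma adjusted p = 0.62), and by -0.52 (adjusted p = 0.019) without control replicate 3. Il13 itself was above background on all arrays, at -4.17 to -3.85 in CUS and -4.47 to -3.42 in controls, with a difference of -0.04 (95% confidence interval -0.39 to 0.31). Smooth muscle markers, whose summed level was 4.01 to 10.7 in CUS and 4.5 to 41.5 in controls, moved in the same direction as Il13ra2, and their part in its difference was not tested.

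Il4ra, the chain that binds IL-4 and is shared with the IL-13 receptor, gave different answers from its probes. The brighter one was at -1.69 to -1.17 (median -1.57) in CUS and -2.38 to -1.43 (median -1.97) in controls, with a difference of 0.47 (SE 0.16, limma adjusted p = 0.027). The other probe, 5876 bases away on chromosome 1, differed by -0.41 (SE 0.19, limma adjusted p = 0.086). The groups overlapped for both. The mean of both probes differed by 0.03 (limma adjusted p = 0.89). The call of the brighter probe was also lost without CUS replicate 1 (adjusted p = 0.056), CUS replicate 6 (0.052) or control replicate 6 (0.061), and with normexp background correction (0.15, adjusted p = 0.24).

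Of 6 tested genes of the common gamma chain family, 3 passed as lower (Il2rg, Il7r and Il15) and 1 as higher (Il4ra). Among all tested genes, 25.8% were lower and 24.2% higher. With spike-in scaling Il2rg and Il15 differed by 0.24 and 0.45, and neither passed. Il2rg, the common gamma chain, was at 3.02 to 3.35 (median 3.12) in CUS and 3.50 to 4.01 (median 3.73) in controls. All CUS rats were below all control rats, and the difference was -0.59 (SE 0.11, limma adjusted p = 0.00091). Il7r, the alpha chain of the IL-7 receptor, was at -5.14 to -3.39 (median -4.76) in CUS and -4.26 to -2.96 (median -3.45) in controls. The difference was -1.07 (SE 0.30, limma adjusted p = 0.012), and CUS replicate 1 lay among the control rats. The other Il7r probe, 1177 bases away, differed by 0.40 (SE 0.39, limma adjusted p = 0.41), and the mean of both by -0.33 (adjusted p = 0.42). With quantile normalization the brighter probe differed by -0.70 (limma adjusted p = 0.07).

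**Figure D3:**
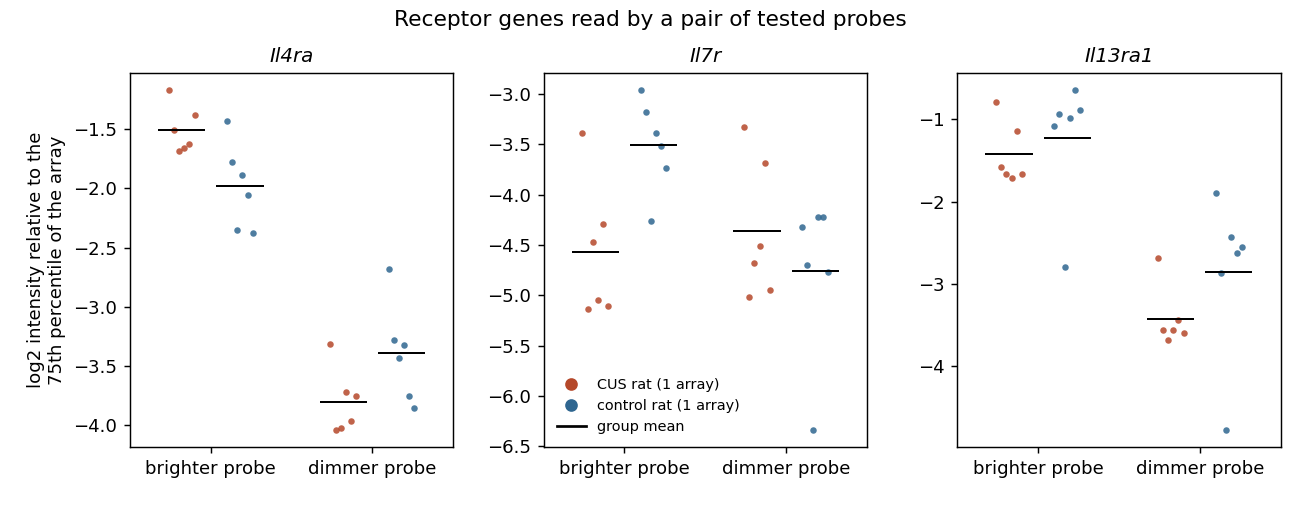
Each point is 1 rat, CUS in red and control in blue, with a line at the group mean, for the brighter and the dimmer probe of Il4ra, Il7r and Il13ra1. The vertical axis is the log2 intensity relative to the 75th percentile of the array. The group means are in opposite order for the probes of Il4ra and of Il7r, and in the same order for those of Il13ra1.

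Il15, which sustains NK cells and memory T cells, was slightly lower. Its level was -2.20 to -1.99 (median -2.10) in CUS and -1.96 to -1.53 (median -1.69) in controls, without overlap. The difference was -0.38 (SE 0.09, limma adjusted p = 0.0056). Il7, the ligand of Il7r, differed by 0.49 (SE 0.22, limma adjusted p = 0.086), and passed without control replicate 3 (0.62, adjusted p = 0.022) and without control replicate 6 (0.59, adjusted p = 0.048). Il2rb, the beta chain of the IL-2 and IL-15 receptors, differed by 0.01 (95% confidence interval -0.49 to 0.51). T cell markers, given above beside Il10, did not pass in either direction. Of 5 NK cell markers, Prf1 and Gzmb were above background on 6 CUS arrays and on 1 control array each. They were higher in CUS, but reached the 6 arrays needed for the test through the CUS arrays. Nkg7 differed by 0.04, while Ncr1 and Klrd1 could not be tested. The part of these cells in the differences of Il2rg, Il7r and Il15 was not tested.

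Il3ra, the alpha chain of the IL-3 receptor, was lower in CUS without overlap. It was at -0.90 to -0.65 (median -0.83) in CUS and -0.30 to 0.55 (median 0.08) in controls. The difference was -0.87 (SE 0.13, limma adjusted p = 0.0002). With spike-in scaling it was -0.04 (limma adjusted p = 0.9). Il3 was above background on no array. The Il3ra chain is known on endothelial cells, whose markers had a summed level of 19.9 to 40 in CUS and 19.1 to 83.9 in controls, and their part in the difference was not tested.

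In the IL-17 family, 2 ligands passed in opposite directions. Il17b was at -3.37 to -3.03 (median -3.25) in CUS and -3.28 to -1.08 (median -1.95) in controls. The CUS rats lay close together, and control replicate 5 fell among them. The difference was -1.14 (SE 0.32, limma adjusted p = 0.01), -0.94 without control replicate 3, and -0.31 with spike-in scaling (limma adjusted p = 0.39). Il17d was at -0.08 to 0.51 (median 0.18) in CUS and -0.47 to 0.12 (median -0.36) in controls. The difference was 0.49 (SE 0.12, limma adjusted p = 0.005), and control replicate 3 was the highest control rat.

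The IL-17 receptor chains Il17re and Il17ra were among the 4 brightest probes of the genes studied, with Il2rg and Il34. Il17re, which binds IL-17C, was at 4.53 to 5.34 (median 4.99) in CUS and 4.21 to 5.38 (median 4.49) in controls. The highest control value was that of control replicate 3. The difference was 0.38 (SE 0.21, limma adjusted p = 0.14), and 0.54 (adjusted p = 0.011) without that array. Il17ra, the chain shared by the IL-17 receptors, was at 2.07 to 2.83 (median 2.40) in CUS and 1.77 to 2.82 (median 2.57) in controls. The difference was -0.06, with a 95% confidence interval of -0.46 to 0.35. Il17f was above background on 1 CUS array, and Il17rb, Il17rd and Il25 on none.

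Il34, a ligand of the CSF-1 receptor on macrophages, was at 2.26 to 3.09 (median 2.59) in CUS and 1.73 to 3.67 (median 3.31) in controls. Control replicate 3 was the lowest of the 12 rats, and the other 5 control rats lay above all CUS rats. The difference was -0.46 (SE 0.30, limma adjusted p = 0.21) with all arrays and -0.74 (limma adjusted p = 0.0035) without control replicate 3.

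Of 8 genes related to IL-1 and IL-18, 3 could be tested. Il1f5, now named Il36rn, is the antagonist of the IL-36 receptor. It was at -2.58 to -1.89 (median -1.97) in CUS and -1.81 to -0.78 (median -1.35) in controls, without overlap. The difference was -0.75 (SE 0.19, limma adjusted p = 0.0061). The other Il1f5 probe, 2234 bases away, was above background on no array. The IL-36 agonists Il1f6, Il1f8 and Il1f9, which lie in a cluster with Il1f5 and Il1f10 over 124 kb of chromosome 3, were above background on at most 1 array of a group. Il18r1, the IL-18 receptor chain, differed by -0.61 (SE 0.21, limma adjusted p = 0.03). Its call was lost without CUS replicate 3 (adjusted p = 0.055), CUS replicate 5 (0.056), CUS replicate 6 (0.059), control replicate 2 (0.06) or control replicate 4 (0.067). With quantile normalization it was -0.25 (limma adjusted p = 0.28). Il18bp, the secreted protein that holds IL-18 from its receptor, differed by -0.21 (95% confidence interval -0.77 to 0.35), and by -0.45 (limma adjusted p = 0.029) without control replicate 3.

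Neither of the tested IL-12 family genes passed. Il23a, the p19 chain of IL-23, differed by -0.04 (SE 0.25, limma adjusted p = 0.89), and by -0.30 (adjusted p = 0.024) without control replicate 3. Il12rb2, a chain of the IL-12 receptor, differed by -0.20 (95% confidence interval -0.55 to 0.15). Among the rest, Il16 differed by -0.08 (95% confidence interval -0.75 to 0.59), and Il8rb, now named Cxcr2, a chemokine receptor of neutrophils, by 0.11 (-0.18 to 0.40). For these genes the intervals allow differences of either sign. With normexp background correction, however, Il23a (-0.51, limma adjusted p = 4.3e-05) and Il12rb2 (-0.37, limma adjusted p = 0.0095) passed as lower. Normexp moved the median difference of all tested probes by -0.159.

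**Figure D4:**
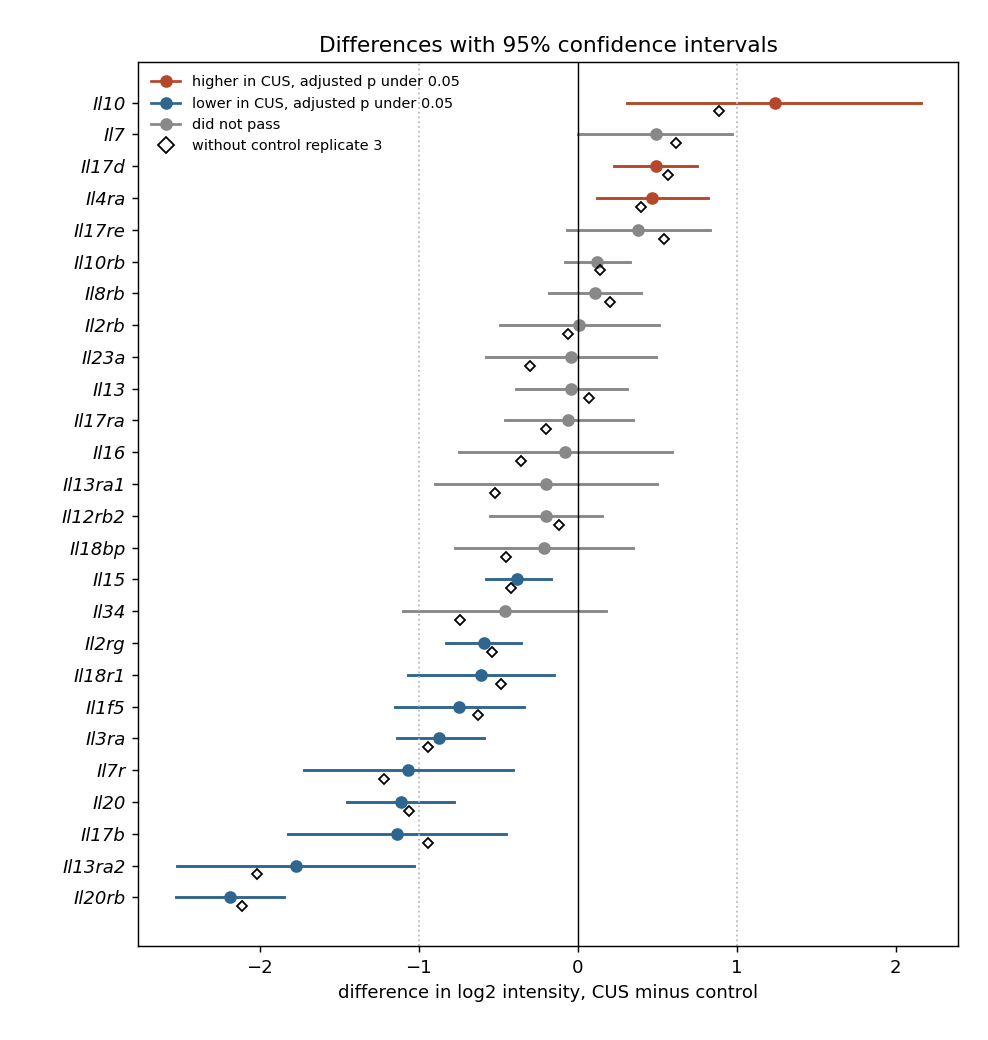
Each point is the difference in log2 intensity, CUS minus control, of 1 of the 26 tested genes, and the line is its 95% confidence interval. Red and blue mark genes that passed as higher and as lower, grey those that did not pass, open diamonds the difference without control replicate 3, and dotted lines a change of 2-fold. Il20rb is farthest from 0, and Il10 has the widest interval among the genes that were higher.

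**Figure D5:**
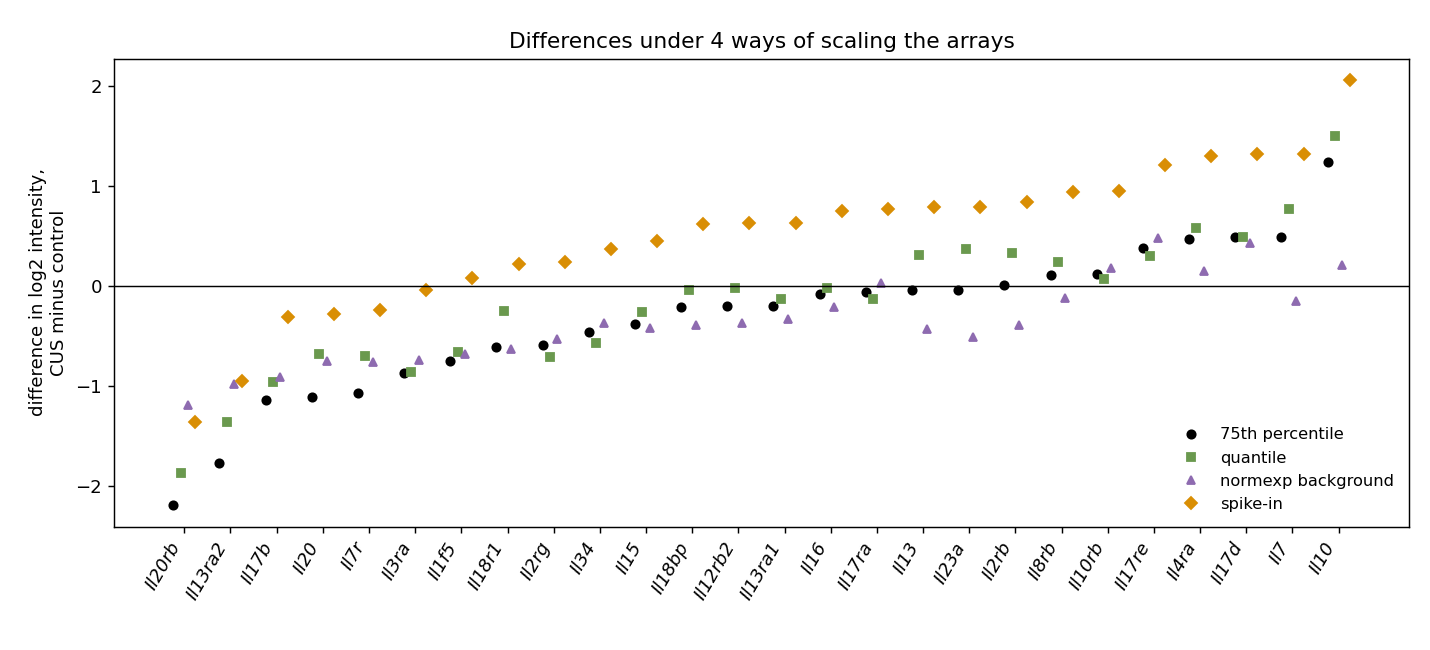
The points give the difference in log2 intensity, CUS minus control, of the 26 tested genes under 4 ways of scaling the arrays. With spike-in scaling every gene moves up by the same amount, so that genes with smaller negative differences change sign. Il20rb and Il13ra2 still pass as lower in CUS, at -1.36 and -0.95, while Il3ra, Il7r, Il17b and Il20 keep a negative sign without passing.

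Genes that carry or answer interleukin signals were taken from a list of partner chains, kinases, adaptors, inhibitors and induced genes. Of 48 on the array, 43 were tested, of which 9 were higher (20.9%) and 3 lower (7.0%), where 24.2% and 25.8% of all tested genes were. Csf2, a cytokine whose receptor shares its beta chain with those of IL-3 and IL-5, was above background on 6 CUS arrays and no control array, and was at least 3.69-fold higher in CUS. It entered the test through the CUS arrays alone, so no p-value is given for it, although it is among the 9 counted as higher. Ebi3, the partner chain of IL-27 and IL-35, was higher by 1.12 (SE 0.21, limma adjusted p = 0.0011). Of 5 genes induced by IL-17 or IL-10, 2 passed. Cxcl1 and Zc3h12a, which IL-17 induces, were higher by 1.28 (SE 0.28) and 0.88 (SE 0.29), with limma adjusted p-values of 0.0026 and 0.025. Bcl3 (0.38), Nfkbiz (0.27) and Lcn2 (-0.38) did not pass.

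The 3 genes of the list that were lower act at or near the receptors. Traf3ip2, which encodes Act1, the adaptor of the IL-17 receptors, was lower by a difference of -0.91 (SE 0.14, limma adjusted p = 0.00024). Crlf2, the receptor chain for TSLP that pairs with Il7r, differed by -0.51 (SE 0.13, limma adjusted p = 0.0054), and Csf2ra, the alpha chain for Csf2, by -0.43 (SE 0.13, limma adjusted p = 0.014). None of 6 feedback inhibitors and none of 7 tested genes induced by IL-4 and IL-13 passed the limma test, with median differences of -0.03 and -0.18. The split of the list was 14 higher and 5 lower with quantile normalization, 10 higher and 11 lower with normexp background correction, 31 higher and none lower with spike-in scaling, and 10 higher and 9 lower without control replicate 3.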

How the data were processed

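For the intensities, the authors deposited the output of Agilent Feature Extraction 10.7.3.1 for 12 arrays, in which background was already subtracted but arrays were not normalized against each other. A table of quantile normalized intensity values, also deposited by the authors, served as an alternative. The paper names an exon array, but the deposited files come from an expression array with 60-base probes. Of 62976 spots per array, 58717 were not controls. Spots marked as outliers were dropped, the remaining spots of each probe averaged on the log2 scale, and the 75th percentile of the array was subtracted. No probe of the genes studied was saturated. A gene was read from its brightest tested probe. The groups were compared in limma 3.58.1 (R 4.3.3), two-sided, without covariates, with Benjamini-Hochberg adjustment over 19728 tested probes. Genes passed at an adjusted p below 0.05, with a 2-fold change only where said. With 1 array per rat, p-values measure the spread between these rats on a single slide per group, and the number of arrays limits the precision. A bound sets the bright group's mean against the dim group's mean of, per array, the higher of the lowest signal well above background and the probe's own. Bounds were taken only on the scale of the 75th percentile. Named in full are genes that passed at 2-fold, genes seen in 5 or more arrays of 1 group only, the 4 brightest, and up to 4 listed pathway genes per direction; other genes that passed are given by their difference. The genes and lists were chosen with earlier results of these data known. In simulated data on 19728 probes, 21 of 71 changes of 0.5, 61 of 72 of 1 and 57 of 57 of 2 (log2) were called, with 10 false calls. Only these probes were changed there, and the noise was independent between probes. In the data 24.2% of tested genes were called higher and 25.8% lower, so these rates need not hold there. Tables were made with Python 3.11.15 and pandas 2.3.3, and current symbols are those of RefSeq.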

Additional observations from a re-analysis of the deposited data

Results flagged for a closer look

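Each group of 6 rats was searched, for each of the 26 tested genes, for a single value far from the other 5, by the gap to the nearest value over the range of the group, against the 95% critical value of Dixon's test. Of 52 groups 7 had one, where chance alone gives about 1 in 20, and 6 of the 7 were control replicate 3. That array was the lowest control for Il34 (1.73, others 3.12 to 3.67), Il13ra1 (-2.80, others -1.08 to -0.64), Il18bp (-3.48, others -2.37 to -1.80) and Il23a (-5.65, others -4.35 to -3.87). It was the highest control for Il17re (5.38, others 4.21 to 4.65) and Il17d (0.12, others -0.47 to -0.29). The remaining value was Il12rb2 in CUS replicate 1 (-2.35, others -2.85 to -2.70). Control replicate 3 had the lowest 75th percentile (an intensity of 229.6) and the fewest probes above background (60.4%) of the 12 arrays, and the part of this in its values was not tested.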

How the results depend on the processing

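Of 27 alternatives, counts of genes higher and lower moved over 1.5 times in these. Spike-in scaling gave 11 and 2 (list of pathway genes 31 and 0). Testing every probe gave 35 lower and 6 pathway genes lower, quantile normalization (and likewise the authors' own) 14 and 5 pathway genes, normexp 11 and array weights 12 pathway genes lower. The methods' unpaired test with a 2-fold change gave 1 and 5 without adjustment, 0 and 5 with it (pathway 3 and 0 in both), and a 2-fold change added to limma 1 and 5 (3 and 0). Leaving out 1 array gave 1 to 5 higher and 9 to 14 lower (pathway 6 to 10 and 3 to 9). The fewest higher came without CUS replicate 6, and the most higher, the most lower and the most pathway genes lower without control replicate 3. Signs turned with spike-in scaling for Il12rb2 (0.63), Il13 (0.79), Il13ra1 (0.63), Il15 (0.45), Il16 (0.75), Il17ra (0.77), Il18bp (0.62), Il18r1 (0.22), Il1f5 (0.08), Il23a (0.79), Il2rg (0.24) and Il34 (0.37), which follows from its shift of 0.829. They also turned with quantile normalization and in the authors' values for Il13 (0.31 and 0.30) and Il23a (0.37 and 0.39), with normexp for Il17ra (0.03), Il2rb (-0.39), Il7 (-0.15) and Il8rb (-0.12), and with array weights for Il13 (0.10) and Il2rb (-0.26). The cause was not tested. With normexp, Il12rb2, Il13, Il18bp, Il23a and Il2rb passed as lower and Il17re as higher, although none of them passed in the main test. With 1 array left out the ranges crossed 0 for Il13 (-0.14 to 0.07), Il16 (-0.36 to 0.04), Il17ra (-0.20 to 0.01), Il23a (-0.30 to 0.06) and Il2rb (-0.11 to 0.20). Il20rb kept its call under every alternative, and Il13ra2 under each one that tested it (the strict filter on dim probes left it out, with Il10 and Il23a). Replicate numbers give array positions and do not pair rats (correlations -0.19 to 0.43). As a replicate block they gave 3 and 10 genes and 12 and 4 pathway genes. Dim probes are limited by signal over background.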

Other observations

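A few interleukin probes carry only a transcript identifier or a provisional name on the array, and so fall outside the choice by name. The probe of Il17a was above background on 5 CUS and 2 control arrays, with a difference of 0.80 (SE 0.45, limma adjusted p = 0.16). A probe of an Il3ra-like gene differed by -0.30 (SE 0.15, limma adjusted p = 0.11). A second probe of Il2rg was above background on no array, as were those of Il31ra, Il15ra, Il23r and an Il19-like gene. The probe of Il17c, the ligand of Il17re, was above background on 2 CUS and 3 control arrays.

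Promoters from RefSeq (300 bases around the start site, build GRCr8) were matched for 42 of the 57 genes and searched for a pair of motifs that read the same on both strands and that no stretch of bases can match at once. The letters TTCNNNGAA, bound by STAT factors, occurred in 7 of them (16.7%), against 8.7% of 27457 promoters. Il17d and Il18r1 were the genes among these that passed the test, the first as higher and the second as lower. The letters ACANNNTGT, the core of the glucocorticoid receptor's motif, occurred in 5 (11.9%, against 6.6% of all promoters), namely Il1f10, Il17f, Il21, Il27ra and Il28ra, which were all too dim for the test. A match is a description of the letters and not a binding site.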
